A study of Mus musculus with 12 samples.

Results

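The transcripts described here are those of 6 genes that handle creatine and high-energy phosphate in muscle, namely Ckm, Ckmt2, Ckb, Slc6a8, Ak1 and Ampd3, out of 23337 genes counted. They were taken by symbol, as a set chosen by measured values in part, since the counts of these libraries and their KO and stage differences were known when the set was made. Their differences between groups are therefore a description of where each gene lies in a fit over all genes, and they support nothing beyond that. The counts come from 12 libraries of mouse cardiomyocytes (CMs, the beating muscle cells) in 4 groups of 3. All animals received AAV9-cTNT-Cre, an adeno-associated virus in which the cardiac troponin T promoter drives Cre recombinase, at 1 dose per body weight that transduced a mosaic of CMs. All carried a fluorescent reporter that Cre switches on, and FACS kept the fluorescent CMs. KO animals were Srf-flox/flox, so that Cre removes both copies of Srf, the gene of the transcription factor serum response factor (SRF). CTRL animals were Srf-flox/+ and received the same virus, so that their CMs kept 1 intact copy. In the neonatal groups (P14 CTRL and P14 KO) the virus was given at postnatal day 1 and CMs were collected at day 14. In the adult groups (P90 CTRL and P90 KO) it was given at day 60 and CMs were collected at day 90. CMs came from the apex of collagenase-perfused hearts, per the study's methods, which list several reporter alleles without saying which of them was used for these libraries. Sex was not given.

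A beating CM turns over its ATP within seconds and buffers it with phosphocreatine. Creatine enters the cell through the transporter encoded by Slc6a8. The mitochondrial creatine kinase encoded by Ckmt2 charges it to phosphocreatine beside the adenine nucleotide translocase, and the cytosolic muscle-type (Ckm) and brain-type (Ckb) creatine kinases use phosphocreatine to regenerate ATP at the myofibrils and ion pumps. Adenylate kinase 1 (Ak1) recovers ATP from pairs of ADP molecules and releases AMP. AMP deaminase 3 (Ampd3) converts AMP to IMP, the entry to the purine nucleotide cycle. Muscle-type creatine kinase is a classical marker of differentiated striated muscle, and the brain type is the earlier form in the developing heart.

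Total counts per library ranged from 9740389 to 23103460, so that 3 counts stood for 0.138 to 0.326 CPM (counts relative to library size, scaled with TMM factors over all 12 libraries). The smallest count of any of the 6 genes was 566, for Ckb in P90 CTRL replicate 2. Srf itself had 64.0, 57.1 and 49.4 CPM in the P14 CTRL libraries and 32.1, 27.5 and 9.75 CPM in the P14 KO libraries. In the adult groups it had 71.2, 59.1 and 81.1 CPM in CTRL and 32.9, 28.9 and 28.1 CPM in KO. Every KO library was thus below every CTRL library of its stage. The log2 fold change of Srf was -1.30 ± 0.36 (SE, n = 3 against 3) in the neonatal KO, with an adjusted p of 0.0628 by edgeR's quasi-likelihood test. The adjusted p was 0.022 with the replicate number as a block and 0.00288 with DESeq2, and 5 of 14 fits called it. In the adult KO the log2 fold change of Srf was -1.23 ± 0.13 (adjusted p = 0.00347, edgeR). P14 KO replicate 3 stood apart with the lowest Srf level of the 12 libraries. The neonatal fold changes of the 6 genes and the Ckm share are given below with and without it. The correlations, ratios, sums and neonatal fold changes of other genes are given with it only. The 6 CM markers (Tnnt2, Tnni3, Actn2, Myh6, Ryr2 and Pln) summed to between 57970 and 89940 CPM. Marker lists of 6 genes each summed to between 47.5 and 316 CPM for fibroblasts and between 158 and 374 CPM for endothelial cells, and the 5 leukocyte markers summed to at most 11.9 CPM.

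The sequences before the transcription starts are shown for the 4 genes that passed the test in the neonatal KO, because SRF acts on promoters through a short A/T-rich element called the CArG box. Entries for 5 of the 6 genes were in the RefSeq promoter table for GRCm38.p6, the assembly named mm10, and Slc6a8 was not among them. Capitals mark a CArG box, a CArG box with 1 G or C in its A/T core, a MEF2 site or the letters TATAAA, and each run holds the 250 bases that end just before a start, read 5′ to 3′ on the strand of the gene.
Ckm: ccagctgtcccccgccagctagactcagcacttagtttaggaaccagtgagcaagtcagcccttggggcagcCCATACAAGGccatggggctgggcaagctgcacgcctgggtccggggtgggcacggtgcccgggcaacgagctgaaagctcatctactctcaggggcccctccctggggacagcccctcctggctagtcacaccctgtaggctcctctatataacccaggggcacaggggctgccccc
Ampd3: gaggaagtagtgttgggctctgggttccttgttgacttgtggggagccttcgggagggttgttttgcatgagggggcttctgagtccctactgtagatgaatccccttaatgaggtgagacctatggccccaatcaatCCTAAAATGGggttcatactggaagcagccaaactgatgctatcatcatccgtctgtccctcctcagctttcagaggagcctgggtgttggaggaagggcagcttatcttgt
Ckb: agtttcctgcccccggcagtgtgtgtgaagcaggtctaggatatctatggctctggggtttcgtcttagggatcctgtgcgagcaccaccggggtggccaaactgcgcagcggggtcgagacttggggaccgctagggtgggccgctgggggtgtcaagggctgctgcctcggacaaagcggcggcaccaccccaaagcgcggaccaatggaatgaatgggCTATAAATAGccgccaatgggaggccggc
Ckmt2: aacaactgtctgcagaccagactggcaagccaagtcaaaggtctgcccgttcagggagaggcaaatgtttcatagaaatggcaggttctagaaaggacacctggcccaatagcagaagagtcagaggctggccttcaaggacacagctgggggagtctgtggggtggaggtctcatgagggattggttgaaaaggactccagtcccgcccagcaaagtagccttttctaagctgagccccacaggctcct

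The run of Ckm lies at chr7:19410844-19411093 on the plus strand, that of the third of 3 Ampd3 starts at chr7:110773386-110773635 on the plus strand, that of Ckb at chr12:111672339-111672588 on the minus strand and that of Ckmt2 at chr13:91876886-91877135 on the minus strand. An exact CArG box was found in the Ampd3 run, starting 112 bases before that start site. Of the 3 Ampd3 starts, the one printed was the only one with a match in capitals. Of all 32841 windows of 250 bases in the table, 1.47% held one. That is a share per window, and 3 windows were searched for Ampd3. The other 2 Ampd3 starts, the 4 Ak1 starts and the single starts of Ckm, Ckb and Ckmt2 held none in their windows. The Ckm run held a CArG box with 1 G or C in its core, starting 178 bases before the start, as did 7.24% of all windows. The Ckb run held a MEF2 site that overlaps TATAAA and starts 29 bases before the start. MEF2 sites were in 2.92% and TATAAA, searched on the gene's strand only, in 7.59% of windows. The letters CANNTG, the E-box of muscle regulatory factors, were in 66.2% of windows (both strands), once in that of Ckm and 4 times in that of Ckmt2. These are matches of letters. The third Ampd3 start lies inside the gene, in an intron of the deposited gene model. Which Ampd3 start gave the reads was not tested, and the data here hold no measure of binding.

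Ckm (chr7:19411094-19421583, plus strand, 8 exons of 1415 bp) was down-regulated in the KO at both stages, the one of the 6 genes called at both by edgeR, whereas DESeq2 and the replicate block also called Ampd3 at both. In P14 CTRL it had 3294.5, 4562 and 3404 CPM, and in P14 KO 1265, 1212 and 438 CPM. In P90 CTRL it had 3800, 3218 and 3982 CPM, and in P90 KO 2128, 1735 and 1636 CPM. The KO libraries lay below all CTRL libraries at both stages, and P14 KO replicate 3, the library with the least Srf, also had the least Ckm. That library was the lowest of the 12 for Ckmt2 (1849 CPM), Slc6a8 (42.8 CPM) and Ak1 (716 CPM) as well, but not for Ckb or Ampd3. The neonatal log2 fold change was -1.96 ± 0.37 (SE, adjusted p = 0.02, edgeR), which left 25.8% of the CTRL level and put Ckm at rank 21 from the lowest of 12546 genes. Without P14 KO replicate 3 it was -1.59 (adjusted p = 0.0154, edgeR), and the call was lost without P14 KO replicate 1 (-2.18, adjusted p = 0.0554, edgeR) or replicate 2 (-2.12, adjusted p = 0.0738, edgeR). The adult log2 fold change was -0.99 ± 0.12 (adjusted p = 0.00755, edgeR), which left 50.2% and rank 49 of 11808 genes. That call was lost without P90 KO replicate 2 (-0.95, adjusted p = 0.0594, edgeR) and in a fit of all 12 libraries together (adjusted p = 0.234, edgeR). The neonatal log2 fold change minus the adult one was -0.95 ± 0.41, and this difference did not pass the test (adjusted p = 0.236, edgeR; -1.19 to -0.61 with 1 library left out). Between CTRL stages Ckm differed by -0.03 ± 0.15, with overlapping groups. Libraries of this kind do not keep strand, and the GENCODE annotation of the same assembly places an RNA gene, A930016O22Rik, on the opposite strand over 451 bp (31.9%) of the Ckm exons. Reads of the 2 genes could not be told apart there.

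Ckmt2 (chr13:91853387-91876885, minus strand, 10 exons of 1486 bp) differed from Ckm in its course with age and was among the genes called in the neonatal KO but not in the adult KO. In P14 CTRL it had 2752, 3430 and 3169 CPM, and in P14 KO 2212, 2300.5 and 1849 CPM. In P90 CTRL it had 5989, 5188 and 5610 CPM, and in P90 KO 5982, 5494 and 5127 CPM. The groups were apart at P14 and overlapped over almost their whole range at P90. The neonatal log2 fold change was -0.56 ± 0.14 (adjusted p = 0.0453, edgeR), a drop to 67.8%, and the adult one -0.01 ± 0.10 (adjusted p = 0.973, edgeR). The difference between them was -0.54 ± 0.17 (adjusted p = 0.11, edgeR; 0.0181 with DESeq2). The neonatal call was a narrow one, since it held without P14 CTRL replicate 1 but not without any other of the 6 libraries (adjusted p 0.0888 to 0.157, edgeR), nor with scaling to total counts alone (-0.34, adjusted p = 0.075, edgeR). Without P14 KO replicate 3 the log2 fold change was -0.45. From P14 CTRL to P90 CTRL Ckmt2 rose by 0.85 ± 0.12 (adjusted p = 0.00122, edgeR), to 180% of the level at P14. In GENCODE the exons of Ckmt2 share 84 bp (5.65%) with 1700119I11Rik on the opposite strand.

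Ckb (chr12:111669355-111672338, minus strand, 8 exons of 1478 bp) was a minor transcript in all groups. In P14 CTRL it had 77.2, 103 and 165 CPM, and in P14 KO 51.3, 53.9 and 63.3 CPM. In P90 CTRL it had 77.2, 61.5 and 69.1 CPM, and in P90 KO 73.4, 62.8 and 59.9 CPM. P14 CTRL was the high and the widely spread group (CV 39.1%), and the 3 other groups lay close together, each overlapping its neighbour in the order of levels. The neonatal log2 fold change was -1.04 ± 0.25 (adjusted p = 0.0417, edgeR), against -0.08 ± 0.12 in the adult (adjusted p = 0.773, edgeR). P14 CTRL replicate 3 set much of the size of the neonatal value, which was -0.69 without it (adjusted p = 0.0468, edgeR). The call was lost without P14 CTRL replicate 2 (adjusted p = 0.0526, edgeR) and without P14 KO replicate 1, 2 or 3 (-0.97 to -1.12, adjusted p 0.115 to 0.147, edgeR), as well as with total counts alone (adjusted p = 0.0678, edgeR). The difference between the neonatal and adult effects was -0.95 ± 0.30 (adjusted p = 0.115, edgeR; 0.0304 with DESeq2), and it passed the edgeR test without P14 CTRL replicate 1 (-1.17, adjusted p = 0.0293). Between CTRL stages Ckb was 0.73 ± 0.25 lower at P90 on the log2 scale (adjusted p = 0.0519, edgeR; 0.0133 with DESeq2). The lowest P14 library and the highest P90 library were level to 3 digits, and without P14 CTRL replicate 3 the value was -0.37 (adjusted p = 0.124, edgeR).

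**Figure D1:**
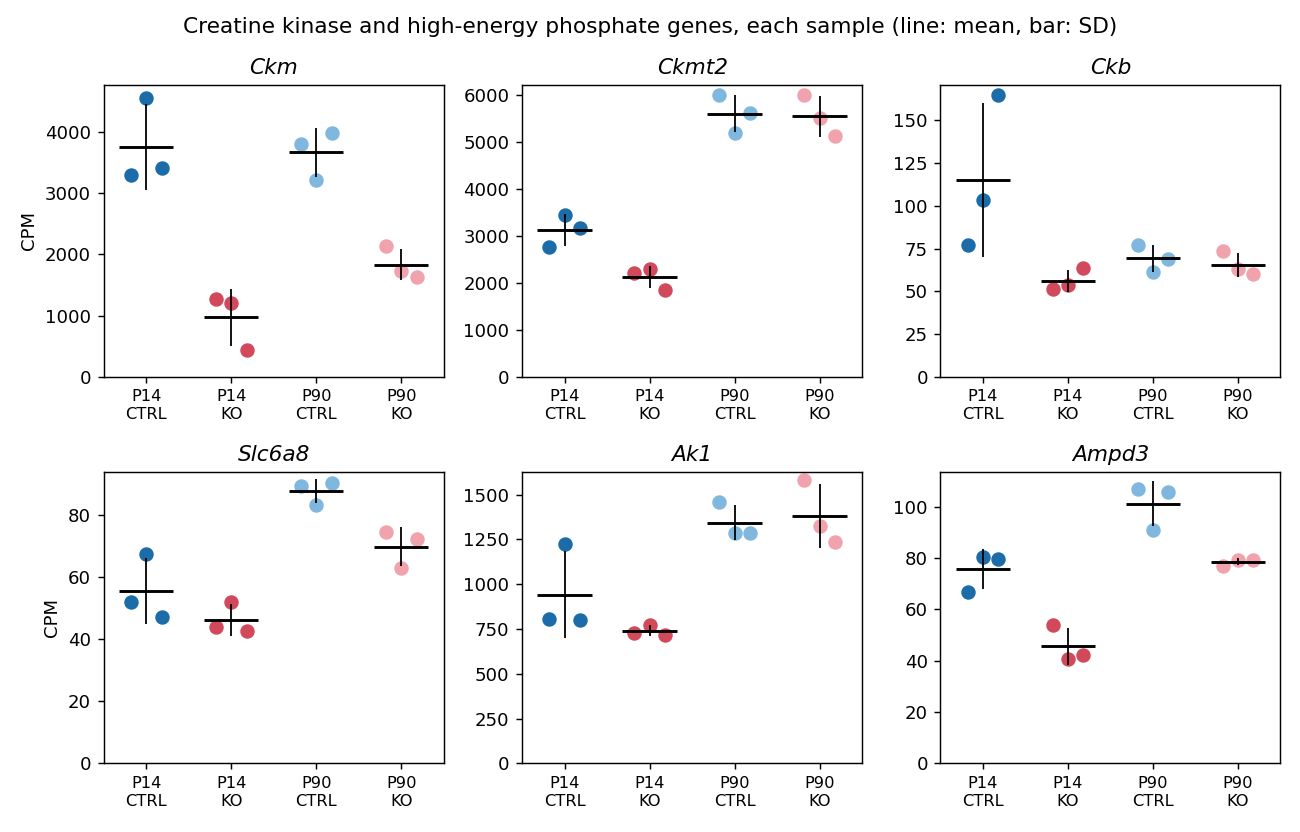
Level of each of the 6 genes in CPM (y axis, from 0, a different scale in each panel) in every library of the 4 groups (x axis). Points are libraries, horizontal lines are means and vertical bars are SD, n = 3. Ckm sits at 438 to 1265 CPM in P14 KO and at 1636 to 2128 CPM in P90 KO, below all CTRL libraries, whereas Ckmt2, Ckb and Ak1 of P90 KO lie among P90 CTRL.

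Because reads per gene depend on exon length, the 3 creatine kinases were compared with each other in RPKM (CPM per kilobase of exon). Ckm and Ckmt2 were among the most abundant transcripts of the CM. By mean RPKM, Ckm ranked 17 of 23337 genes in P14 CTRL, 71 in P14 KO, 22 in P90 CTRL and 70 in P90 KO, and Ckmt2 ranked 22, 26, 13 and 14 in the same order. Their balance shifted in the same direction with age and with Srf loss, but not through the same gene. From P14 CTRL to P90 CTRL Ckmt2 rose to 180% and Ckm stayed at 98%. In the adult KO Ckm fell to 50.2% of CTRL and Ckmt2 stayed at 99.3%. In the neonatal KO Ckm fell to 25.8% and Ckmt2 to 67.8%. Ckm made up 55.0%, 57.5% and 51.7% of the summed creatine kinase RPKM in P14 CTRL, and 37.0%, 35.1% and 19.4% in P14 KO. In P90 CTRL the share was 39.7%, 39.2% and 42.4%, and in P90 KO 26.9%, 24.7% and 24.9%. Thus muscle-type creatine kinase was the larger share in P14 CTRL alone, and the mitochondrial type the larger in the 3 other groups. The ratio of Ckm to Ckmt2 RPKM within a library, which does not depend on library scaling, was 1.26 ± 0.14 (SD, n = 3) in P14 CTRL, 0.468 ± 0.191 in P14 KO, 0.687 ± 0.050 in P90 CTRL and 0.347 ± 0.023 in P90 KO. No KO library reached the range of its CTRL group, and without P14 KO replicate 3 the mean Ckm share of P14 KO was 36.0% in place of 30.5%. Ckb held 1.63% ± 0.67, 1.87% ± 0.70, 0.731% ± 0.036 and 0.873% ± 0.017 of the sum in P14 CTRL, P14 KO, P90 CTRL and P90 KO. The summed RPKM of the 3 kinases was 4828 ± 702 in P14 CTRL and 2151 ± 481 in P14 KO, and 6404 ± 521 in P90 CTRL and 5064 ± 474 in P90 KO. The other mitochondrial creatine kinase, Ckmt1, known from brain and epithelia, had between 0 and 10 counts in each library.

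**Figure D2:**
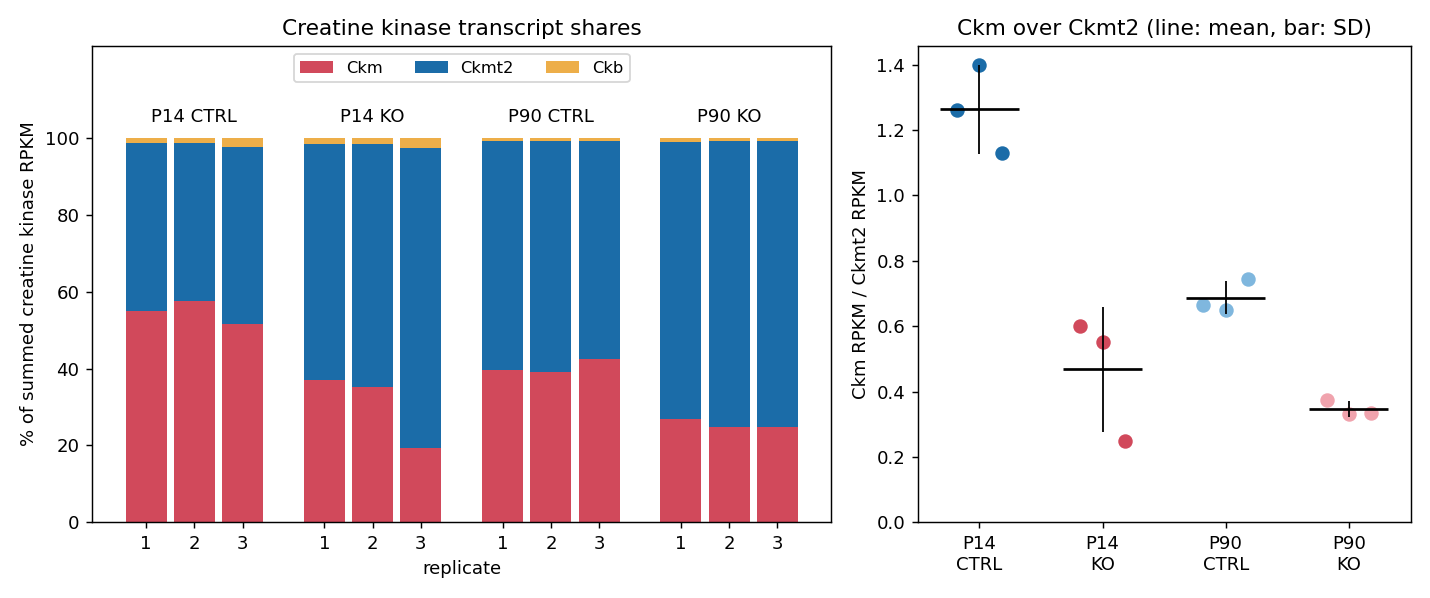
Left, shares of Ckm, Ckmt2 and Ckb in their summed RPKM (y axis, %) in each library, numbered by replicate within its group. Right, the ratio of Ckm to Ckmt2 RPKM (y axis) by group, with points for libraries, lines for means and bars for SD (n = 3). The Ckm share runs from 51.7% to 57.5% in P14 CTRL down to 24.7% to 26.9% in P90 KO, with P14 KO replicate 3 lowest at 19.4%.

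Slc6a8 (chrX:73673133-73682500, plus strand, 15 exons of 3979 bp), which encodes the creatine transporter, was not called in either KO. It had 52.0, 67.3 and 47.3 CPM in P14 CTRL and 43.8, 52.1 and 42.8 CPM in P14 KO, and these groups overlapped. In P90 CTRL it had 89.3, 83.4 and 90.4 CPM, and in P90 KO 74.5, 62.8 and 72.1 CPM, with every KO library below every CTRL library. The log2 fold change was -0.27 ± 0.15 in the neonatal KO (adjusted p = 0.32, edgeR; -0.20 without P14 KO replicate 3, -0.10 without P14 CTRL replicate 2 and -0.046 with total counts alone) and -0.33 ± 0.10 in the adult KO (adjusted p = 0.154, edgeR). The stages differed by 0.07 ± 0.18. From P14 CTRL to P90 CTRL the transcript rose by 0.66 ± 0.14 (adjusted p = 0.0083, edgeR), to 158% of the P14 level.

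Ak1 (chr2:32621758-32635058, plus strand, 10 exons of 2365 bp) was the third most abundant of the 6 per length, at 398 ± 103 RPKM (SD, n = 3) in P14 CTRL and 568 ± 41.6 RPKM in P90 CTRL. Its CPM was 803, 1224 and 799 in P14 CTRL and 729, 774 and 716 in P14 KO. The KO libraries lay below the CTRL libraries, but by a margin far smaller than the spread within CTRL. In P90 CTRL it had 1458, 1286 and 1288 CPM, and in P90 KO 1584, 1324 and 1237 CPM, with full overlap. The log2 fold change was -0.35 ± 0.18 (adjusted p = 0.255, edgeR; -0.31 without P14 KO replicate 3, -0.12 without P14 CTRL replicate 2 and -0.13 with total counts alone) in the neonatal KO and 0.05 ± 0.11 (adjusted p = 0.874, edgeR) in the adult KO. The CTRL level rose from P14 to P90 by 0.52 ± 0.17 (adjusted p = 0.046, edgeR), a call that was lost in 8 of 13 other fits, among them those without P14 CTRL replicate 1 or 3 and without P90 CTRL replicate 1, 2 or 3 (0.42 to 0.56, adjusted p 0.0905 to 0.146, edgeR).

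Ampd3 (chr7:110772604-110812395, plus strand, 15 exons of 4084 bp) was down-regulated in the neonatal KO. It had 67.0, 80.5 and 79.7 CPM in P14 CTRL and 54.0, 40.7 and 42.1 CPM in P14 KO. In P90 CTRL it had 107, 91.0 and 106 CPM, and in P90 KO 77.0, 79.4 and 79.2 CPM. The groups did not overlap at either stage. The log2 fold change was -0.74 ± 0.14 (adjusted p = 0.0222, edgeR) in the neonatal KO, a drop to 60.0% of CTRL, and -0.36 ± 0.10 (adjusted p = 0.122, edgeR; 0.0364 with DESeq2) in the adult KO. The stages differed by -0.37 ± 0.17 (adjusted p = 0.261, edgeR). The neonatal call was lost without P14 KO replicate 2 (-0.64, adjusted p = 0.0921, edgeR) or replicate 3 (-0.66, adjusted p = 0.101, edgeR). From P14 CTRL to P90 CTRL Ampd3 rose by 0.42 ± 0.12 (adjusted p = 0.0293, edgeR), a call lost without P14 CTRL replicate 1 or P90 CTRL replicate 1 or 3 (0.35 to 0.40, adjusted p 0.1 to 0.104, edgeR). In GENCODE its exons share 195 bp (4.77%) with Rnf141 on the opposite strand.

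Over the 6 genes, 4 were called lower and none higher in the neonatal KO, where 8.59% of 12546 tested genes were called and 4.6% were called lower. In 5 of the 6, all but Slc6a8, the P14 KO libraries lay below all P14 CTRL libraries, as they did for 16.7% of tested genes. All 6 log2 fold changes were negative in each of the 14 fits run for this comparison. Their number called was 0 without P14 KO replicate 2, 1 without replicate 1 or 3 of that group and 2 without P14 CTRL replicate 2. In the adult KO 1 of the 6 was called (Ckm and Ampd3 by DESeq2 or with the replicate block), where 0.39% of 11808 genes were called and 0.152% were called lower, and 3 (Ckm, Slc6a8 and Ampd3) had KO libraries below all CTRL libraries, as had 11.2% of genes. By edgeR, Ckm was 1 of 7 genes called lower in both KO comparisons, 0.0602% of the 11636 genes tested in both. Srf, the deleted gene, was not among the 7 (neonatal adjusted p = 0.0628, edgeR). The number depends on the tool, since DESeq2 called more genes at each stage. The study, which used DESeq2, reported more genes down in both models. For the difference between the stages edgeR called 0 of the 6 (1.78% of 12841 genes were called), with an unadjusted p below 0.05 for 4 (Ckm, Ckmt2, Ckb and Ampd3), and DESeq2 called Ckmt2 and Ckb. Between CTRL stages 4 of the 6 were called, all higher at P90, where 29.3% of 12294 genes were called and 14.5% were called higher. That comparison sets 1 deposited table against the other, so age, table and any difference in handling cannot be told apart.

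Markers of CMs and of other cells also differed between the groups. The summed CM markers went from 80330 to 89460 CPM in P14 CTRL to 57970 to 62980 CPM in P14 KO. Most of that gap lay in Myh6, the main adult myosin heavy chain (mean 55700 and 35500 CPM). It was the one of the 6 called lower (-0.65 ± 0.16, adjusted p = 0.0466, edgeR). Actn2 had a higher mean in P14 KO (5380 and 6510 CPM), and the median log2 fold change of the 6 was -0.40. In the adult groups the sum was 81090 to 89940 CPM in CTRL and 72050 to 75300 CPM in KO, and that gap lay in Myh6 (mean 55400 and 40600 CPM) and Ryr2 (1500 and 936 CPM). The 4 other CM markers had higher means in P90 KO, among them Tnnt2 (9920 and 12100 CPM) and Tnni3 (6540 and 8230 CPM), and the median log2 fold change of the 6 was 0.09. The 4 atrial markers summed to 52.6 to 499 CPM in P14 CTRL and 296 to 1172 CPM in P14 KO, and to 184 to 292 CPM in P90 CTRL and 132 to 590 CPM in P90 KO, overlapping at both stages. Most of the sum was Nppa, which is also a gene of stressed ventricle (mean 267 CPM in P14 CTRL and 723 CPM in P14 KO, adjusted p = 0.257, edgeR). The atrial genes Sln and Myl7 had log2 fold changes of 4.08 ± 1.46 and 3.53 ± 1.33, from means of 0.33 and 0.923 CPM in P14 CTRL (adjusted p = 0.124 and 0.143, edgeR; unadjusted p = 0.0223 and 0.0283), and the median of the 3 tested atrial markers was 3.53 on the log2 scale. Between CTRL stages Sln and Myl7 rose, to means of 14.3 and 28.2 CPM (log2 fold changes of 5.36 ± 0.63 and 4.87 ± 0.64, adjusted p = 0.000545 and 0.000965, edgeR). The 6 markers of smooth muscle and pericytes summed to 941 to 1413 CPM in P14 CTRL and 374 to 582 CPM in P14 KO, and to 268 to 412 CPM in P90 CTRL and 190 to 198 CPM in P90 KO. Acta2, a known SRF target, held most of these counts and fell in the neonatal KO (-1.87 ± 0.29, adjusted p = 0.0128, edgeR), while the pericyte gene Cspg4 rose (1.34 ± 0.23, adjusted p = 0.0157, edgeR), and the median of the 6 was -0.08. The fibroblast and endothelial sums of KO and CTRL overlapped at both stages, at 106 to 295 and 172 to 316 CPM (fibroblast) and 174 to 374 and 228 to 339 CPM (endothelial) in P14 CTRL and P14 KO. In CTRL, 4 of 6 fibroblast and 4 of 6 endothelial markers were called lower at P90 than at P14, and the others had lower means too. Of all 12294 genes, 29.3% were called in either direction. The part of these shifts in the values of Ckm, Ckmt2, Ckb, Slc6a8, Ak1 and Ampd3 was not tested. In pooled cells, a smaller share of cells that express a gene and less of its RNA in each cell cannot be told apart.

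**Figure D3:**
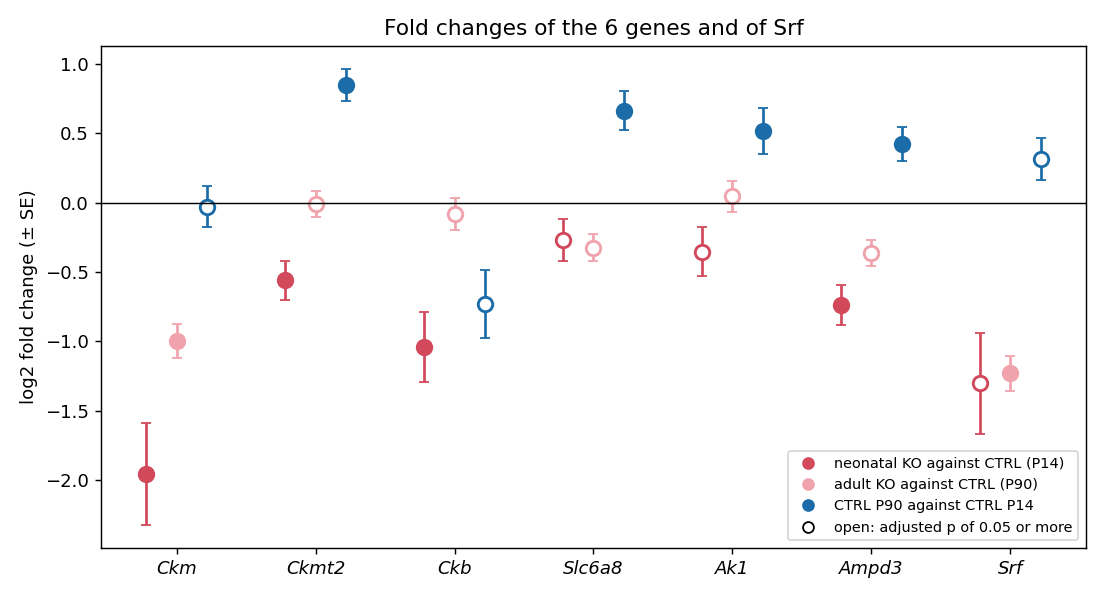
Log2 fold change (y axis, ± SE) of the 6 genes and of Srf (x axis) for neonatal KO against CTRL, adult KO against CTRL and P90 CTRL against P14 CTRL, n = 3 in each group. Filled points passed the edgeR test (adjusted p under 0.05) and open ones did not. Ckm is the only one of the 6 with filled points in both KO comparisons (-1.96 and -0.99), and Ckmt2 (0.85) has the highest value between CTRL stages.

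How the 6 genes varied together was described by the Pearson correlation of log2 CPM after each stage's mean was subtracted, over the 12 libraries. These points share the same libraries and the KO contrast, so no p is given. Ckm went most closely with Ampd3 (r = 0.907) and Ckmt2 (0.888), and least with Ak1 (0.579). The lowest value of any pair was that of Ckb and Slc6a8 (0.301). Among 9461 other genes, those nearest to Ckm were Myl3, a ventricular myosin light chain (0.993), and Itgb1bp2, encoding the muscle protein melusin (0.99). Myl3 had log2 fold changes of -1.34 in the neonatal and -0.60 in the adult KO, and Itgb1bp2 of -1.83 and -0.68. Nearest to Ckmt2 were Mrpl2, a mitochondrial ribosomal protein (0.989), and Got1, an aminotransferase of the malate-aspartate shuttle (0.98). Nearest to Ckb were Fkbp4 (0.961) and Tha1 (0.95), to Slc6a8 Alg10b (0.945) and Zfp639 (0.928), to Ak1 Cisd3 (0.984) and the muscle phosphoglycerate mutase Pgam2 (0.971), and to Ampd3 Kif16b (0.966) and Raver2 (0.962).

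Other genes of the same chemistry were followed in 5 lists with 45 genes, of which 43 were in the tables and 36 were tested in the neonatal comparison. Of these, 7 were down-regulated and 3 up-regulated in the neonatal KO, 26 of 36 log2 fold changes were negative and their median was -0.22. Over all 12546 genes, 8.59% were called, 4.6% were called lower, 49.8% were negative and the median was 0.00. Of the other adenylate kinases, Ak3 and Ak4 of the mitochondrial matrix fell by 0.42 ± 0.09 (adjusted p = 0.0294, edgeR) and 0.66 ± 0.13 (adjusted p = 0.0245, edgeR). Among 13 tested genes of the purine nucleotide cycle, salvage and breakdown, 3 fell and 2 rose. Those that fell were the muscle adenylosuccinate synthase Adssl1 (-0.60 ± 0.13, adjusted p = 0.0255, edgeR) and the lyase Adsl (-0.48 ± 0.11), which act in turn to return IMP to AMP, and adenosine kinase Adk (-0.80 ± 0.19). The other synthase of that step, Adss, had a log2 fold change of 0.49 ± 0.18 (adjusted p = 0.131, edgeR), at a mean level of 2.75 RPKM in P14 CTRL where Adssl1 had 115 RPKM. Those that rose release nucleosides from nucleotides, namely the cytosolic nucleotidase Nt5c2 (0.70 ± 0.16) and the ecto-nucleotidase Nt5e (CD73), which forms adenosine from AMP at the cell surface. Nt5e went from 51.0 ± 6.6 CPM in P14 CTRL to 139 ± 9.9 CPM in P14 KO (SD, n = 3), a log2 fold change of 1.44 ± 0.13 (adjusted p = 0.00216, edgeR). Of 7 subunits of the AMP-activated protein kinase, which senses AMP, 1 was called, the gamma subunit Prkag3, which went from 8.45 ± 2.46 to 26.8 ± 2.4 CPM (1.66 ± 0.22, adjusted p = 0.00823, edgeR). In the list of nucleotide exchange and diphosphate kinases, the outer-membrane channels Vdac2 (-0.60 ± 0.10, adjusted p = 0.0164, edgeR) and Vdac3 (-0.50 ± 0.13) fell, and the translocase Slc25a4, which works beside Ckmt2, had -0.63 ± 0.17 and an adjusted p of 0.0552 by edgeR. None of the 3 tested genes of creatine synthesis and transport, Gatm, Gamt and Slc16a12, was called (adjusted p 0.713 to 0.928, and unadjusted p from 0.483, edgeR), at means of 0.885, 3.65 and 4.37 CPM in P14 CTRL. Nt5e and Prkag3 were called in all 14 fits, whereas each of the other 8 lost its call without P14 KO replicate 1, 2 or 3, at adjusted p up to 0.079 to 0.165 (edgeR). With total counts alone Ak3, Adsl, Adk and Vdac3 also lost it (-0.21, -0.27, -0.58 and -0.28). Adk and Nt5c2 lost it without P14 CTRL replicate 1 or 2 as well, Ak3 and Adsl without replicate 1 or 3 of that group. Vdac3 lost it without P14 CTRL replicate 2 or 3 and with upper quartile scaling.

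In the adult KO 0 of 35 tested genes of these lists were called by edgeR, where 0.39% of all 11808 genes were called, and 9 had an unadjusted p below 0.05. DESeq2 called 2, edgeR with the replicate block 3 and edgeR with no filter on low counts 4. Those settings also called more genes in the whole table. The median log2 fold change of the 35 was 0.07, beside 0.01 over all genes, and 13 of 35 were negative. Called in each of these settings were the alpha and beta subunits Prkaa2 (-0.53 ± 0.12, adjusted p = 0.0888, edgeR) and Prkab2 (-0.56 ± 0.11, adjusted p = 0.0554, edgeR). The block also called Nme1, and the fit with no filter Nme1 and Nt5e. Prkaa2 had 348 ± 46.4 CPM in P90 CTRL and 240.5 ± 28.1 CPM in P90 KO. In the neonatal KO the same 2 subunits had -0.51 ± 0.14 and -0.37 ± 0.13 (adjusted p = 0.0633 and 0.132, edgeR). Both stages thus gave values of like sign that did not pass the main edgeR test. From P14 CTRL to P90 CTRL, 4 of 36 list genes fell and 6 rose, where 29.3% of all 12294 genes were called, so the lists held no larger share of calls than the whole table. The largest rise was that of the xanthine dehydrogenase gene Xdh, which makes uric acid, from 3.95 ± 1.59 to 29.2 ± 5.9 CPM (2.89 ± 0.30, adjusted p = 0.000358, edgeR). Prkab2 (0.85 ± 0.11), Prkag1 (0.50 ± 0.11), Ak4 (1.00 ± 0.14) and the AMP nucleotidase Nt5c1a (1.09 ± 0.16) also rose, and the non-muscle AMP deaminase Ampd2 fell by 2.40 ± 0.41 (adjusted p = 0.00314, edgeR) to 1.99 ± 1.14 CPM. The muscle isoform Ampd1 was below the filter on low counts, at most 0.253 CPM in any library.

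**Figure D4:**
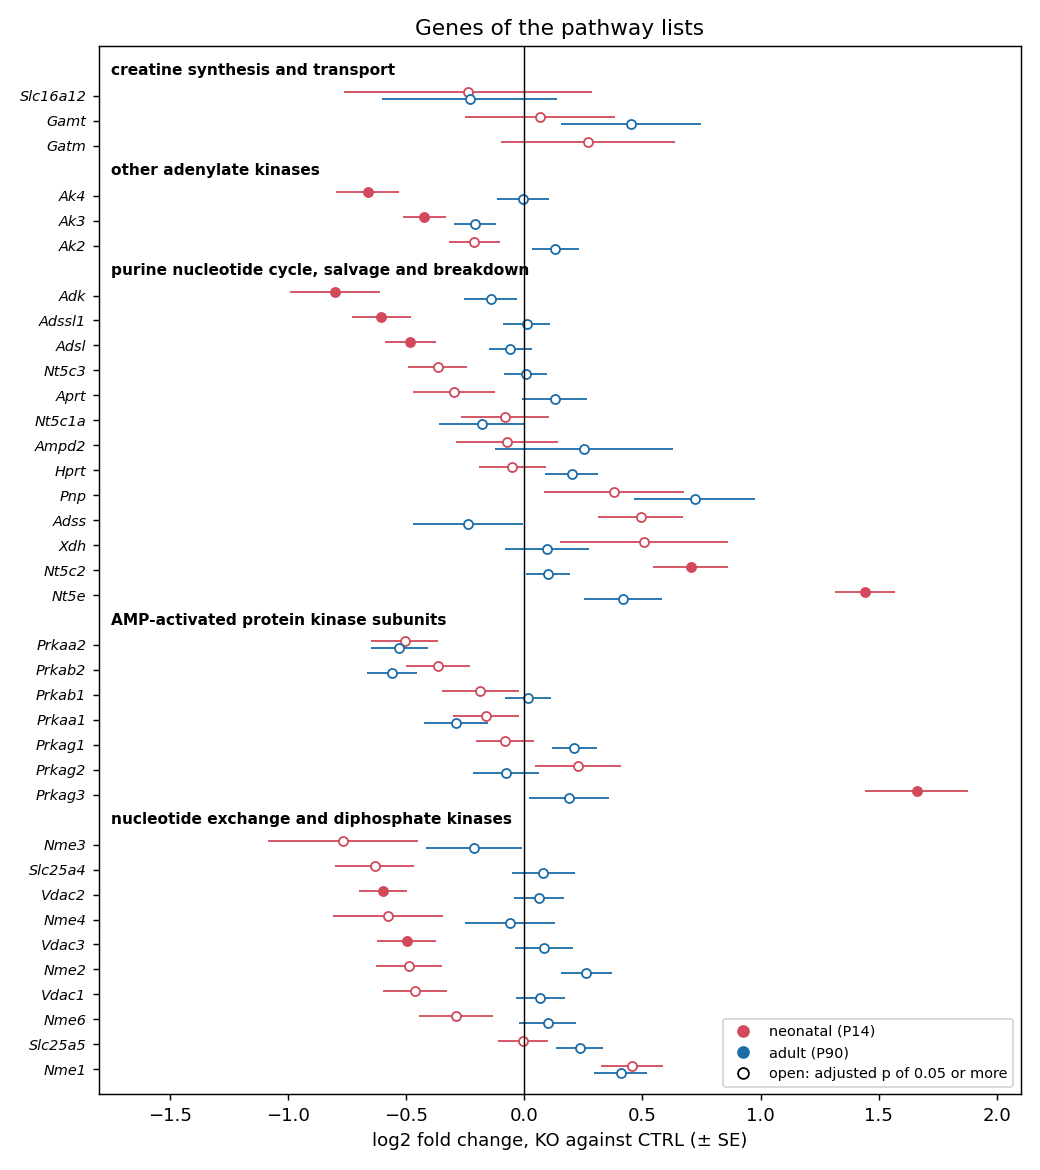
Log2 fold change of KO against CTRL (x axis, ± SE, n = 3 against 3) for the tested genes of the 5 lists (y axis, by list) in the neonatal and the adult model. Filled points passed the edgeR test (adjusted p under 0.05). Filled points are all neonatal, 7 to the left of 0 and 3 to the right, with Nt5e (1.44) and Prkag3 (1.66) farthest out.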

How the data were processed

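Sorted CMs were profiled by RNA-seq (SMART-Seq v4 amplification, Nextera XT libraries, single-end reads). Per the labels and the submitters' processing notes, the authors used CASAVA 1.8, aligned reads to mm10 with STAR 2.5.3a and counted them with featureCounts (Subread 1.5.2). They deposited raw counts per gene, not normalized, in 1 table per stage. Strand and multi-mapping settings are not given in the sources used here. The number of per-sample columns not used was 0. No pair of replicates agreed within sampling noise (chi-square per gene 10.3 to 55.4). The replicates are biological per the series text. Floors cover counting error only.

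Groups came from the labels. Each comparison was fitted on its own 6 libraries (the stage by genotype difference on all 12) with edgeR 4.0.16 under R 4.3.3, after filterByExpr, with TMM factors, glmQLFit and glmQLFTest. P-values were adjusted by Benjamini-Hochberg over all tested genes, with a threshold of 0.05. Fold changes come from these fits, and CPM from factors over all 12 libraries. The study used DESeq2, run here (1.42.0) as an alternative. Other alternatives were other scalings, no filter, a replicate block, 1 fit of all libraries and each library left out in turn. Simulated 2-fold changes were recovered for 74.2% of genes in the neonatal and 85.9% in the adult comparison. The simulated counts took their spread from the trend over all genes. Rates of recovery from them do not cover genes with a wider spread than that trend. Deviations from group means of same-numbered CTRL and KO libraries correlated at r = 0.128, 0.122 and 0.444 at P14. They did so at 0.249, 0.0101 and 0.0687 at P90. The crossed P14 pairs of 1 and 2 had 0.163 and 0.14, so these values cannot show whether replicate numbers pair libraries. The main fits used no pairing, and the replicate block was an alternative only. The rule for named genes took the 6 members, Srf, called genes of the lists, the 2 genes most like each member (prior count 2, mean of at least 5 CPM) and markers. Members and lists were chosen with earlier results of these data known. Slc25a4, Prkaa2, Prkab2, Ampd1, Adss, Gamt, Slc16a12 and Ckmt1 were named outside that rule after their values were seen, as were 3 overlapping GENCODE genes. Marker lists not given in the report were Schwann cell (at most 4.79 CPM) and red cell (at most 2.40 CPM, with Hba-a1, Hba-a2, Hbb-b1 and Hbb-b2 listed at 0 in all libraries).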

Additional observations from a re-analysis of the deposited data

Results flagged for a closer look

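Of the listed genes, 3 had KO effects that differed between the stages by the test of the difference itself, out of 36 tested, where 1.78% of all 12841 genes were called. For Nt5e the neonatal log2 fold change exceeded the adult one (0.42 ± 0.17) by 1.04 ± 0.23 (adjusted p = 0.044, edgeR), and for Prkag3, with 0.19 ± 0.17 in the adult KO, by 1.48 (adjusted p = 0.0266, edgeR). For Vdac2, with 0.06 ± 0.10 in the adult KO, the difference was -0.65 (adjusted p = 0.0437, edgeR). In the adult groups Nt5e had 44.3 ± 7.4 CPM in CTRL and 59.0 ± 12.9 CPM in KO (SD, n = 3), Prkag3 7.65 ± 1.19 and 8.69 ± 0.90 CPM, and Vdac2 457 ± 14.9 and 475 ± 59.1 CPM. With 1 library left out, the 3 genes kept the call in 4, 5 and 3 of 12 fits (Nt5e, Prkag3 and Vdac2). Each lost it without P14 KO replicate 1, 2 or 3, P90 CTRL replicate 2 or 3, or P90 KO replicate 1 or 2. Nt5e also lost it without P90 CTRL replicate 1, and Vdac2 without P90 CTRL replicate 1 or P14 CTRL replicate 2. With scaling to total counts alone, Vdac2 lost the call too. Over all 18 alternatives the adjusted p ran from 0.00174 to 0.118 for Nt5e, from 0.000281 to 0.0878 for Prkag3 and from 0.000398 to 0.115 for Vdac2 (edgeR or DESeq2), with no change of sign.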

How the results depend on the processing

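The numbers of genes called depended on the settings. For the neonatal KO, 1078 genes became 1724 with total counts alone (319 lower and 1405 higher, against 577 and 501), 1832 with DESeq2 and 2088 in the fit of all 12 libraries. For the adult KO, 46 became 701 with no filter on low counts, 343 with DESeq2, 655 with the replicate block and 3 in the fit of all 12. For the stage by genotype difference, 228 became 474 with no filter, 916 with DESeq2 and 687 with the replicate block. Leaving out 1 library gave 111 to 1004 genes (lowest without P14 KO replicate 2, with 202 and 181 without replicates 1 and 3) in the neonatal KO, 6 to 51 in the adult KO (6 without P90 KO replicate 2, 16 and 25 without P90 CTRL replicates 3 and 1), 2067 to 4768 between CTRL stages (against 3607, lowest without P90 CTRL replicate 1) and 4 to 377 for the stage by genotype difference (lowest without P90 KO replicate 2). With total counts alone the median of all genes was 0.22 (neonatal), -0.12 (CTRL stages) and 0.17 (stage by genotype) on the log2 scale, in place of 0.00, -0.01 and -0.01, and under it the neonatal calls of Ckmt2 and Ckb were lost. The replicate block gave 1529 neonatal calls and changed no neonatal call of the 6 genes. At both stages the labels give only a number, and no pairing of animals. With P90 libraries in the fit, the block called Ampd3 in the adult KO (adjusted p = 0.0416, edgeR) and Ckb in the stage by genotype difference (0.0296). It called neither Ak1 nor Ampd3 between CTRL stages (0.0605 and 0.0508). The sign turned, with no call on either side, for adult Ckmt2 (0.019 with total counts, and -0.073 to 0.037 with 1 library left out, where it was 0.033 without P90 CTRL replicate 1), adult Ak1 (-0.068 to 0.114 with 1 left out), Ckm between CTRL stages (-0.102 to 0.116 with 1 left out), and, in the stage by genotype difference, Slc6a8 (-0.030 to 0.234 with 1 left out) and Srf (0.10 with total counts, -0.373 to 0.288 with 1 left out). The cause of these shifts was not tested, beyond the smaller number of libraries in fits that leave one out. Leaving out libraries for the creatine kinase shares was chosen after seeing the data. In all, 568 of 713 alternative values of single genes kept direction and side of the threshold, 113 lost a call, 19 gained one and 13 turned sign. With 3 libraries a group, a change of 2-fold or less can be missed. For the difference between stages, 46.5% of simulated 2-fold changes were recovered.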
